A study of Mus musculus with 10 samples.

Results

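The Ms4a membrane protein cluster was described here by the 6 genes Ms4a7, Ms4a4a, Ms4a4c, Ms4a6c, Ms4a6b and Ms4a6d, of 21755 protein-coding genes annotated on the mouse autosomes and X. A chromatin loop was counted for the cluster when at least 1 of its 10 kb anchor bins overlapped the 100 kb on either side of a member's transcription start site (TSS). The start sites were those of the GENCODE M21 annotation of GRCm38, and the resulting window was chr19:11236146-11704849, a length of 468.7 kb. Of 301424 loops in 5 lists, 376 met this rule.

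The loops came from Hi-C, a sequencing readout of which parts of the genome touch each other inside the nucleus, of bone marrow-derived macrophages (BMDMs). All cells were from wild-type female C57BL/6 mice aged 2 to 3 months and were grown in M-CSF at 20 ng/ml, with treatment on day 6. M0[CTR] cells stayed untreated, and M2[IL-4] cells were exposed to IL-4 at 20 ng/ml for 24 h, the cytokine that polarises macrophages towards the alternative state. M2p[pIL-4] cells had the same exposure, then a washout and 24 h of rest. IFNG cells, with no IL-4 before, were given interferon gamma at 20 ng/ml for 3 h, and pIL-4 + IFNG cells were given it after IL-4, washout and rest. Each group had 2 labelled replicates but 1 deposited list of loops, and with no replicate lists the differences below were not checked against the spread between replicates. Each line of a list gave a pair of bins and the number of contacts between them. No marker of the macrophage could be checked, as loop lists hold no expression.

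Ms4a genes encode small proteins that cross the membrane several times and often sit beside signalling receptors. The family lies as a gene cluster in mammals and includes Ms4a1, the B-cell antigen CD20, and Ms4a2, the beta chain of the high-affinity IgE receptor of mast cells. Ms4a4a is a surface protein of alternatively polarised macrophages, Ms4a7 is expressed in tissue macrophages, and the Ms4a6 genes are expressed in myeloid cells. Loop anchors in mammals often hold CTCF, a DNA-binding protein that halts the extrusion of chromatin loops in a way that depends on the orientation of its site.

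The sequences shown first lie in or near the stretches where the loops of the cluster changed direction, and in the bins of the start sites of Ms4a4a and Ms4a6d. They were matched to the core CTCF consensus in GRCm38 with at most 1 mismatch on either strand, a match that 23.5% of the 5821 bins of chromosome 19 also held. An exact match was in 3.04% of these bins. Capitals mark the matched bases, and each sequence is printed along the strand of its match. The Ms4a7 boundary sequence (chr19:11344181-11344220, minus strand, 1 mismatch) lies in the bin next to the Ms4a7 TSS, on its upstream side. The Ms4a4a upstream sequence (chr19:11374963-11375002, minus strand, 1 mismatch) shares a bin with the Ms4a4a TSS. The Ms4a6d upstream sequence (chr19:11608340-11608379, plus strand, 0 mismatches) shares a bin with the Ms4a6d TSS, and the Ms4a2 boundary sequence (chr19:11611600-11611639, plus strand, 1 mismatch) lies in the next bin.
Ms4a7 boundary: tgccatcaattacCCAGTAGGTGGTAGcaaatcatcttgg
Ms4a4a upstream: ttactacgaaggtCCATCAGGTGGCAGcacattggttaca
Ms4a6d upstream: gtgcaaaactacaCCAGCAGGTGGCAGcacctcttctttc
Ms4a2 boundary: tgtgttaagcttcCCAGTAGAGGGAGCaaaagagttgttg

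The RefSeq table of promoters, 250 bases before to 50 bases after a start site in GRCm38.p6, held 6 promoters of 5 members. They were searched on both strands for the letters TTCNNNNGAA (STAT6-type, for the factor that IL-4 activates), GAAANNGAAA (the core of the interferon-stimulated response element) and GAGGAAG (the core of PU.1, a factor of myeloid cells). The STAT6-type letters were in 2 of the 6 promoters, those of Ms4a7 and Ms4a6b, and in 6.95% of 32851 promoters. The other letters were in 0 of the 6, against 3.44% and 13.6% of all promoters in the order given. Both promoters with the STAT6-type letters are printed, as their genes lie at the edge and in the middle of the cluster, with the match in capitals. Positions are given from the RefSeq start sites. The match was at position -13 from that of Ms4a7 (chr19:11336097-11336396, minus strand) and at position 8 after that of Ms4a6b (chr19:11518309-11518608, plus strand). The printed Ms4a6b promoter lies downstream of the GENCODE start site used for the loops, chr19:11516512. A match of letters is a description and shows no binding.
Ms4a7 promoter: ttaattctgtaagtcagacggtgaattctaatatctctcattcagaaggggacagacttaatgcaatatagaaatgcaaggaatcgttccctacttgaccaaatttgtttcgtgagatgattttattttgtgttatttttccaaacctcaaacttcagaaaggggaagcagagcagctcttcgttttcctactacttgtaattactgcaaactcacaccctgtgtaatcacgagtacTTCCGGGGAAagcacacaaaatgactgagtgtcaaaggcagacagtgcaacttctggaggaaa
Ms4a6b promoter: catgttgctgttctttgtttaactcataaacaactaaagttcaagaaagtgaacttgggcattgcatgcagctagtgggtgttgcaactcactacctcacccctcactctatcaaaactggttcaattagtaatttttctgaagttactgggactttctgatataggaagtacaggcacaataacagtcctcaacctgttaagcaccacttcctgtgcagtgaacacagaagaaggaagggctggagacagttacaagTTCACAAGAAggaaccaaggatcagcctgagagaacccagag

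The loops of the cluster fell into 3 neighbourhoods that met at 2 places, between the bin of the Ms4a7 boundary sequence and its neighbour, and around the TSS of Ms4a6d. Summed over the 5 lists, the bin chr19:11340001-11350000, which holds no protein-coding gene, had 40 loops, and 36 of them ran to lower coordinates. The adjacent bin chr19:11350001-11360000 was the most used of all with 54 loops, and 45 of these ran to higher coordinates. In the bin after it, chr19:11360001-11370000, all 40 loops ran to higher coordinates. So the partner switched side between neighbouring bins in the space between Ms4a7 and Ms4a4a, which also lie on opposite strands.

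The other switch lay at Ms4a6d. The bin chr19:11580001-11590000 within this gene had 32 loops, all to lower coordinates, while chr19:11610001-11620000 within Ms4a2 had 30, of which 24 ran to higher coordinates. Between them, the bin chr19:11600001-11610000 with the Ms4a6d TSS and the exact CTCF consensus match was an anchor in 0 of the 5 lists. It held 41 sites of MboI, the enzyme that cut the chromatin, and 12.9% of its bases were annotated as repeats, against medians of 26 sites and 29.95% over the used bins of the window. Of the 48 bins of the window, 46 were an anchor in at least 1 list.

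CTCF consensus matches did not all lie at the switches or point the way of the loops. Of 8 bins of the window with a match, 7 had loops, and in 4 of these most partners lay on the side of the strand of the match (higher for plus, lower for minus) and in 3 on the other side. The bin of the Ms4a7 boundary sequence had a minus-strand match and loops to lower coordinates, and the bin of the Ms4a2 boundary sequence had a plus-strand match and loops mainly to higher coordinates. The bin of the Ms4a4a upstream sequence also had a minus-strand match, but its 16 loops all ran to higher coordinates. Plus-strand matches in chr19:11300001-11310000 and chr19:11570001-11580000 went with 22 of 23 and 18 of 18 loops to lower coordinates. The bin of the Ms4a6d TSS, with no loops, held a minus-strand match with 1 mismatch beside the exact one. The most used bin, chr19:11350001-11360000, had no match, nor had chr19:11360001-11370000 or chr19:11580001-11590000. The letters were absent there only at this tolerance.

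**Figure D1:**
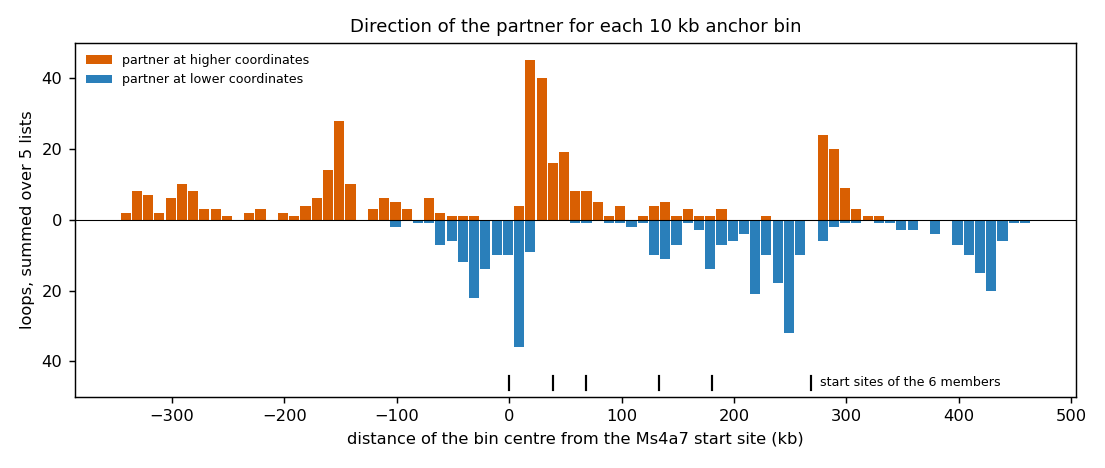
Each bar is a 10 kb anchor bin, placed by the distance of its centre from the Ms4a7 start site in kb, and its height is the number of loops summed over the 5 lists. Orange bars count partners at higher coordinates and blue bars, drawn downwards, those at lower coordinates. The tallest blue bar of 36 loops stands beside the tallest orange bar of 45.

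By these switches, set after the values were seen, the loops were divided into a west segment (both anchors up to the bin starting at 11350001), a middle segment (from 11340001 up to, and including, the bin starting at 11600001) and an east segment (from 11610001). Ms4a7 lies in the west with Ms4a1, Ms4a5 and Ms4a14. Ms4a4a, Ms4a4c, Ms4a6c, Ms4a6b and Ms4a6d lie in the middle, and Ms4a2 and Ms4a3 in the east. Loops that crossed between segments numbered 5, 8, 8, 9 and 4 in M0[CTR], M2[IL-4], M2p[pIL-4], IFNG and pIL-4 + IFNG.

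**Figure D2:**
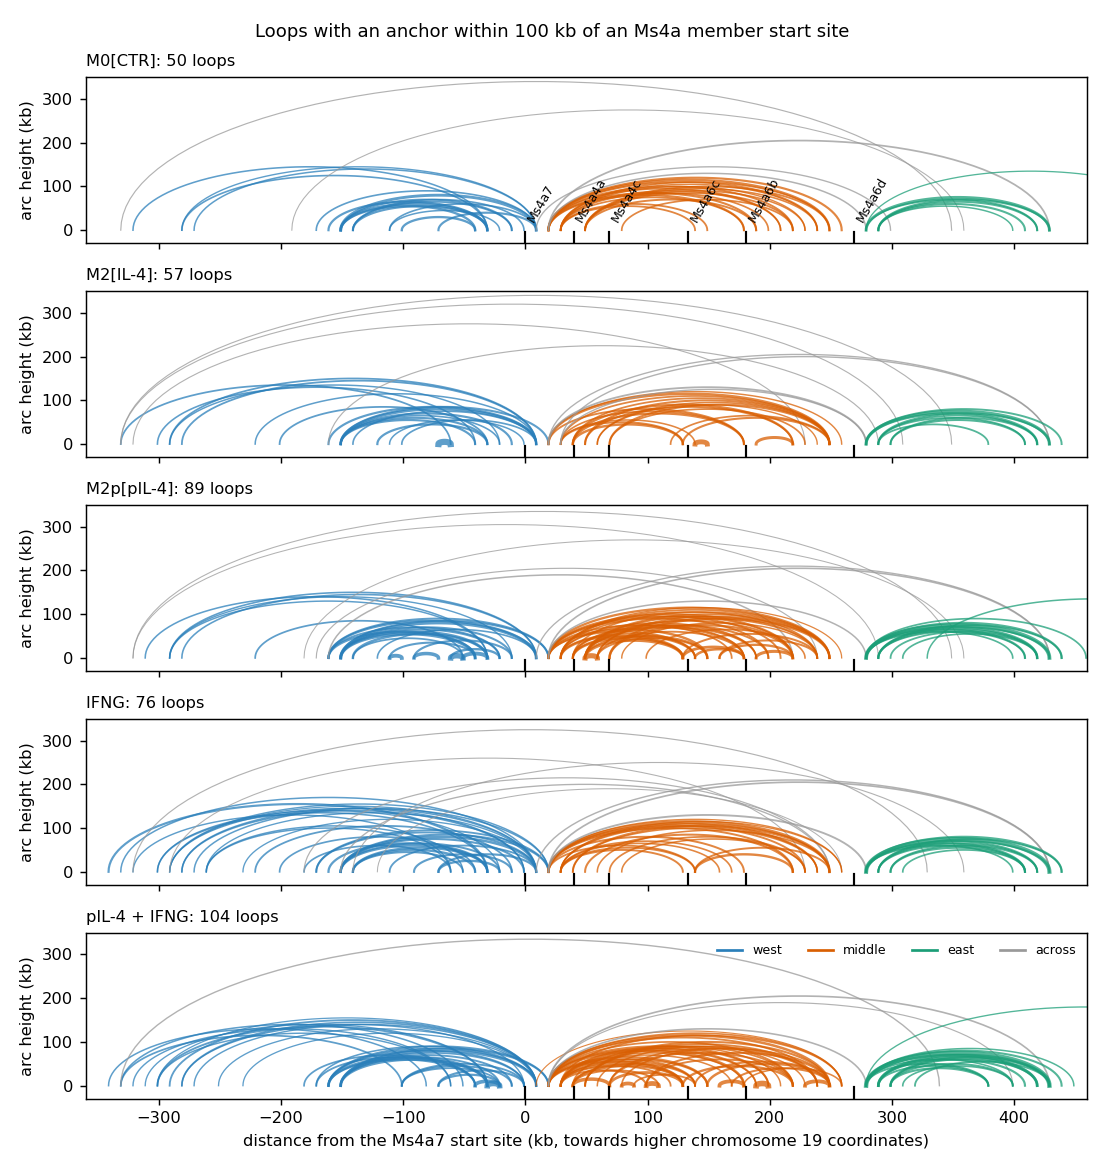
Arcs join the centres of the 2 anchor bins of each loop, by list, with distance from the Ms4a7 start site in kb on the horizontal axis, height equal to the distance from the middle of the loop to an anchor in kb and line width rising with contacts. Black ticks are the start sites of the 6 members, colours are the segments, and anchors beyond the axis are not shown. The middle segment fills in M2p[pIL-4] and pIL-4 + IFNG, with 42 and 48 loops against 21 to 22 in the other lists.

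The cluster had more loops after washout and after interferon gamma than at baseline or under IL-4. The M0[CTR] list held 50 loops of the cluster (95% Poisson interval 37.1 to 65.9), the M2[IL-4] list 57 (43.2 to 73.9) and the M2p[pIL-4] list 89 (71.5 to 110). The IFNG list held 76 (59.9 to 95.1) and the pIL-4 + IFNG list 104 (85.0 to 126). These intervals, and all others below, cover counting error only, and loops that touch each other are not independent. The lists themselves differed in length, with 53424, 58260, 67728, 55012 and 67000 loops in the same order. Relative to that length the cluster had 0.936, 0.978, 1.31, 1.38 and 1.55 loops per 1000. In this order, baseline and M2[IL-4] lay together, and the intervals of the loop numbers of M2p[pIL-4], IFNG and pIL-4 + IFNG overlapped each other. With each list cut to its 53424 strongest loops, the numbers were 50, 45, 48, 73 and 52, and IFNG alone stood above baseline by more than 2 loops. The lists do not hold the depth of the contact maps, so list length and map depth cannot be told apart. Nor can a loop made in fewer cells be told apart from a weaker contact in all of them.

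The lists with more loops of the cluster did not hold ones that were stronger for their span. Median contacts of the cluster's loops were 27, 28, 30, 27.5 and 29 in the 5 lists, in the order M0[CTR], M2[IL-4], M2p[pIL-4], IFNG and pIL-4 + IFNG, and the median in each whole list was 32. Strength was the contacts of a loop over the median of all loops of that list with an equal span. Its median in the cluster was 0.886, 0.923, 0.867, 0.827 and 0.831, and 63.2% to 72.4% of the cluster's loops had a strength below 1, against 46.6% to 46.9% of all loops. Loops of the cluster were thus weaker than the typical loop of their list in all 5. When touching bin pairs were merged, 22, 26, 36, 34 and 38 groups of loops remained.

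Near each of the 6 members, both washed-out lists had more loops than the other 3 before scaling by list length, and the number differed widely between members. Ms4a7 had 41, 40, 65, 56 and 78 loops within 100 kb of its TSS in M0[CTR], M2[IL-4], M2p[pIL-4], IFNG and pIL-4 + IFNG. Ms4a4a, its neighbour across the switch, had 41, 43, 66, 58 and 78. Ms4a4c, the next member along the chromosome, had 39, 39, 62, 51 and 75. These 3 genes lie close together and gave nearly the same numbers, because their windows share loops. Per 1000 loops of the list, IFNG was above M2p[pIL-4] at these 3 members, with 1.02 against 0.96 at Ms4a7, 1.05 against 0.974 at Ms4a4a and 0.927 against 0.915 at Ms4a4c. In each list, 84.2% to 88.2% of the cluster's loops were near 2 or more members.

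Ms4a6c had the fewest loops in each list, which were 18 (10.7 to 28.4), 22 (13.8 to 33.3), 42 (30.3 to 56.8), 20 (12.2 to 30.9) and 44 (32.0 to 59.1) in M0[CTR], M2[IL-4], M2p[pIL-4], IFNG and pIL-4 + IFNG. Both lists from washed-out cells were high here, and, before scaling by list length, the interval of neither overlapped that of M0[CTR]. Ms4a6b had 25, 27, 50, 32 and 55 loops in the same order of lists, and Ms4a6d had 30, 32, 51, 37 and 51. Per 1000 loops of the list, Ms4a6b had 0.468, 0.463, 0.738, 0.582 and 0.821 and Ms4a6d had 0.562, 0.549, 0.753, 0.673 and 0.761, so IFNG lay between baseline and the washed-out lists at both genes.

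**Figure D3:**
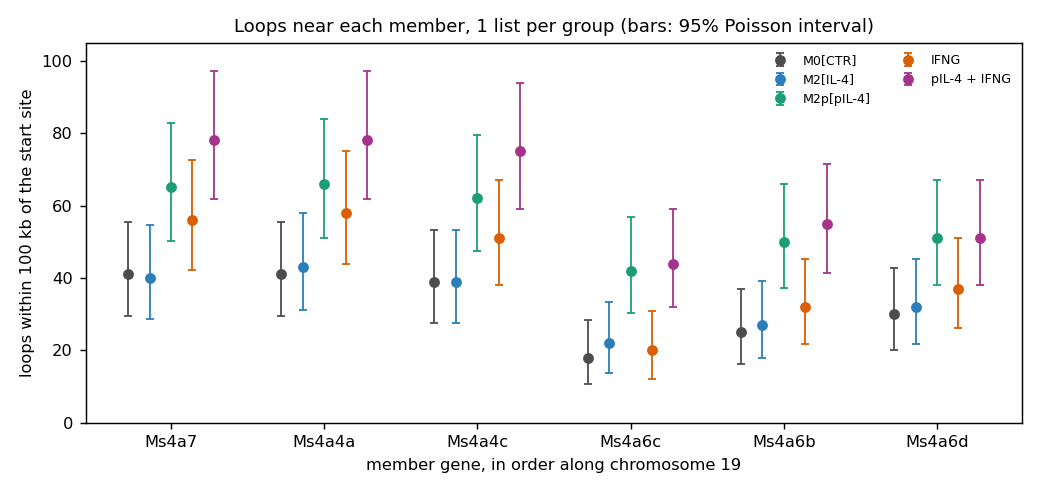
Points are the loops within 100 kb of the start site of each member in each of the 5 lists, with 95% Poisson intervals as bars and the members in order along chromosome 19. M2p[pIL-4] and pIL-4 + IFNG lie above M0[CTR] for each of the 6 members, and for Ms4a6c the IFNG point of 20 stays near the M0[CTR] point of 18.

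The TSS bins themselves had 0 to 5 loops in a list. The Ms4a4a TSS bin had 0, 4, 5, 2 and 5 loops in M0[CTR], M2[IL-4], M2p[pIL-4], IFNG and pIL-4 + IFNG, and the Ms4a6c TSS bin had 0, 3, 5, 1 and 5. The Ms4a4c TSS bin had 0, 2, 2, 1 and 4 loops. These 3 bins were thus not anchors in M0[CTR] and were anchors in the 4 other lists. Of all 48 bins of the window, 28, 31, 39, 33 and 42 were anchors in the same order of lists. A bin unused in M0[CTR] and used in another list was thus not particular to these start sites. The Ms4a6b TSS bin had 2, 3, 5, 1 and 4 loops, and the Ms4a7 TSS bin had 1, 1, 0, 3 and 5. At Ms4a7 the partners all lay on the lower side, and at Ms4a4a all on the higher side. A count of 0 in a list allows up to 3 loops.

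The loop from the Ms4a6c TSS bin to chr19:11360001-11370000, a bin with no protein-coding gene upstream of Ms4a4a, was not in the M0[CTR] list. It had 32 contacts under IL-4, 43 after washout, 31 with interferon gamma alone and 42 with interferon gamma after priming. Its next bin, which is within Ms4a6c, was joined to the same upstream bin in all 5 lists, with 28, 23, 30, 29 and 22 contacts.

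IL-4 for 24 h left the loop number of the cluster close to that at baseline. The log2 ratio of M2[IL-4] to M0[CTR], scaled by list length, was 0.06 (95% interval -0.51 to 0.64). Near single members it was between -0.16 at Ms4a7 and 0.15 at Ms4a6c. Of the 6 members, 0 were higher and 0 lower by 1.5-fold or more, where 8.92% of the 12249 genes with a mean of 5 or more loops were higher and 7.82% lower. At the 21 bin pairs called in both lists, contacts were 0.96 times those at baseline (0.861 to 1.07), against 0.999 over all bin pairs in both lists. Of these 21, 2 differed by 1.5-fold or more, both lower, and 3.85% of all such bin pairs differed as much in either direction. The lower of them joined the most used bin to the bin chr19:11590001-11600000 in Ms4a6d, with 20 contacts against 36, and was also lower in IFNG, with 18.

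After washout and rest, the middle segment held more loops in the list than either at baseline or under IL-4. M2p[pIL-4] had 42 loops there, and M0[CTR] and M2[IL-4] had 21 each. For the whole cluster the scaled log2 ratio was 0.49 (-0.03 to 1.02) against M0[CTR] and 0.43 (-0.07 to 0.93) against M2[IL-4], both with intervals that include 0. In the middle segment it was 0.66 (-0.13 to 1.49) and 0.78 (-0.01 to 1.61). Ms4a6c and Ms4a6b passed 1.5-fold in both comparisons, with log2 ratios of 0.84 and 0.63 against M0[CTR] and of 0.69 and 0.65 against M2[IL-4]. That is 2 of 6 members higher and 0 lower, where 7.24% of genes were higher and 5.14% lower against M0[CTR], and 7.94% and 5.94% against M2[IL-4]. The other 4 members had ratios of 0.31 to 0.40 against M0[CTR].

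The higher loop number after washout than at baseline was not seen in lists of equal length and was seen among strong loops. With each list cut to its 53424 strongest loops, the length of the M0[CTR] list, M2p[pIL-4] kept 48 cluster loops against 50 in M0[CTR], and the log2 ratio turned to -0.06. This cut acts on the longer list only, as it removes 0 cluster loops from M0[CTR] and 41 from M2p[pIL-4], all those under a strength of 0.834. With a strength of 1 or more asked of each list, the cluster had 29 loops after washout and 16 at baseline, a scaled log2 ratio of 0.51. Against M2[IL-4], the log2 ratio of 0.43 became 0.09 with lists of equal length and 0.25 with a strength of 1 or more. At the 24 bin pairs shared with M0[CTR], contacts were 1.08 times as high (0.979 to 1.19), and at the 32 shared with M2[IL-4] also 1.08 times (0.989 to 1.17), against 1.03 over all bin pairs in both comparisons. Of the 24, 0 differed by 1.5-fold or more, and of the 32, 1 was higher, where 3.73% and 3.83% of all bin pairs differed.

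Interferon gamma without IL-4 went with more loops in the west segment, and the middle segment was level with baseline. Scaled by list length, IFNG over M0[CTR] gave a log2 ratio of 0.56 (0.03 to 1.11) for the cluster, 0.91 (0.03 to 1.85) for the west segment, with 33 loops against 17, and 0.02 (-0.91 to 0.96) for the middle segment, with 22 against 21. The east segment had 12 loops against 7, and the difference between segments was not tested. Loops with both anchors inside the window numbered 26 against 25, and those with only 1 anchor inside 50 against 25. Cutting the lists to equal length left 73 loops in IFNG and a log2 ratio of 0.55.

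The members themselves had small ratios in this comparison. Of the 6, 0 were higher and 0 lower by 1.5-fold or more, with ratios between 0.10 at Ms4a6c and 0.45 at Ms4a4a, where 10.2% of genes were higher and 8.49% lower. The 13 other Ms4a genes of the cluster had 6 higher, and the 30 genes with enough loops of 33 that flank it within 500 kb had 14 higher. They included Gif, which encodes the gastric intrinsic factor that binds vitamin B12, with 18 loops in M0[CTR] and 41 in IFNG. At the 24 shared bin pairs contacts were 1.01 times those of M0[CTR] (0.918 to 1.12), against 1.03 over all bin pairs. Of these, 1 was higher and 1 lower by 1.5-fold, where 3.92% of all bin pairs differed.

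Interferon gamma after IL-4 priming gave the list with the most loops for the cluster, with a scaled log2 ratio of 0.24 (-0.18 to 0.67) to M2p[pIL-4] and of 0.17 (-0.27 to 0.61) to IFNG. Against IFNG, the middle segment had 48 loops and 22, a ratio of 0.84 (0.08 to 1.64), and the west segment had 35 and 33, a ratio of -0.20 (-0.93 to 0.53). Ms4a6c was the only member past 1.5-fold in this comparison, with a log2 ratio of 0.82, where 7.36% of genes were higher and 4.91% lower. Against M2p[pIL-4], 0 members were past 1.5-fold in either direction, where 8.18% were higher and 6.09% lower. Both lists that share the washed-out IL-4 treatment thus had a high middle segment. The pIL-4 + IFNG list was also 25.4% longer than that of M0[CTR], and the IFNG list 2.97% longer.

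The comparison with IFNG also turned with list length. With lists of equal length the cluster had 52 loops in pIL-4 + IFNG and 73 in IFNG, a log2 ratio of -0.49, a cut that removed 52 and 3 loops of the cluster. The middle segment then had 21, 17, 20, 21 and 25 loops in M0[CTR], M2[IL-4], M2p[pIL-4], IFNG and pIL-4 + IFNG, and the west segment had 17, 16, 15, 33 and 16. Under this cut IFNG was highest in the west segment, where the lists as deposited had 35 loops in pIL-4 + IFNG and 33 in IFNG. The washed-out lists were level with the others in the middle segment apart from the 25 loops of pIL-4 + IFNG. With a strength of 1 or more, 29 loops in pIL-4 + IFNG stood against 21 in IFNG, a scaled log2 ratio of 0.19.

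**Figure D4:**
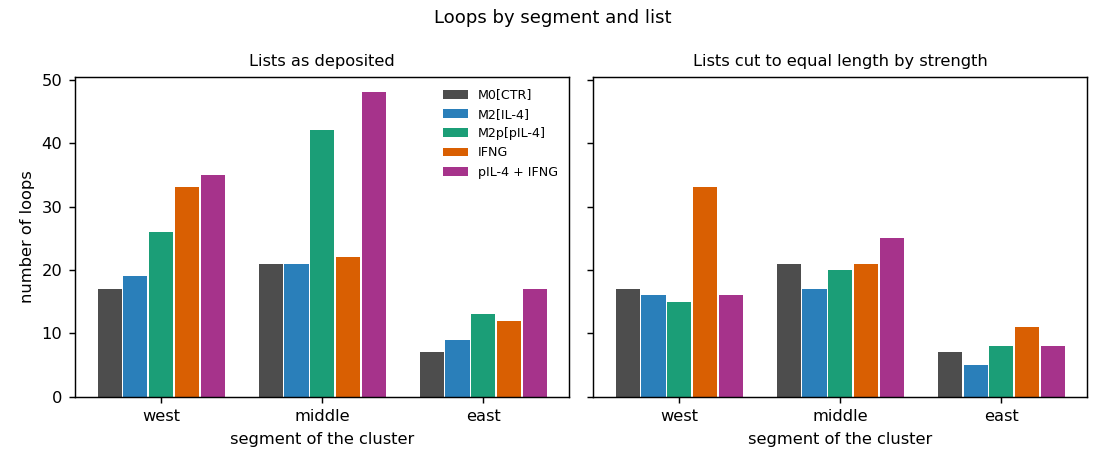
Bars are the number of loops in the west, middle and east segments of the cluster for the 5 lists, for the lists as deposited (left) and with each list cut to its 53424 strongest loops (right). On the left the middle segment has 42 and 48 loops in the washed-out lists, and on the right 20 and 25, near the 21 of M0[CTR].

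At bin pairs called in both lists, contacts differed less than loop numbers did. The 37 shared by pIL-4 + IFNG and M2p[pIL-4] had 1.02 times the contacts (0.938 to 1.10), against 0.987 over all bin pairs, and 1 was higher by 1.5-fold where 3.77% of all differed. The 35 shared by pIL-4 + IFNG and IFNG had 1.08 times (0.995 to 1.18), against 0.985, and 4 were higher where 3.74% differed. Of these 4, 2 joined the bin of the Ms4a2 TSS to Gif, 1 joined the most used bin to Ms4a6b with 48 contacts against 32, and 1 ended at the bin of the Ms4a7 boundary sequence.

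A core of 12 bin pairs was called in all 5 lists, and 5 of them lay in the east segment. Their summed contacts were 421 (382 to 463), 405 (367 to 446), 449 (408 to 493), 438 (398 to 481) and 498 (455 to 544) in M0[CTR], M2[IL-4], M2p[pIL-4], IFNG and pIL-4 + IFNG. The highest of these was 1.18 times that of M0[CTR], where the 14063 bin pairs in all lists of the genome gave 1.02. The bin pairs of the core were the stronger ones, with a median strength of 1.09, against 0.785 for those in 1 list only.

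The loop with the most contacts joined the Ms4a2 boundary bin, chr19:11610001-11620000, to chr19:11760001-11770000 in Gif over 150 kb. Its contacts were 52, 57, 73, 79 and 86 in M0[CTR], M2[IL-4], M2p[pIL-4], IFNG and pIL-4 + IFNG, with a mean strength of 2.09. It was lowest at baseline and highest after both cytokines, and the ratio to M0[CTR] was 1.52 (1.06 to 2.20) in IFNG and 1.65 (1.16 to 2.38) in pIL-4 + IFNG. Of the 5 core bin pairs of the east segment, all between Ms4a2 and Gif, it was the only one with a ratio to M0[CTR] in IFNG of over 1.5. In pIL-4 + IFNG the others were also higher, with 45, 36, 48 and 46 contacts against 30, 34, 32 and 35 in M0[CTR].

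The next loops showed no such order. The bin of the Ms4a7 boundary sequence was joined to chr19:11180001-11190000 in Ms4a13 over 160 kb, with 52, 46, 53, 44 and 47 contacts in M0[CTR], M2[IL-4], M2p[pIL-4], IFNG and pIL-4 + IFNG. The same Ms4a13 bin was joined to chr19:11300001-11310000 in Ms4a14 with 48, 35, 46, 41 and 48. In the middle segment, the most used bin was joined to chr19:11580001-11590000 in Ms4a6d over 230 kb, with 42, 43, 38, 48 and 45 contacts and a mean strength of 1.65. This loop spans Ms4a4a, Ms4a4c, Ms4a6c and Ms4a6b, and its ratios to M0[CTR] of 0.905 to 1.14 all had intervals that include 1. So the loop around the middle segment was level while the number of loops within it differed between the lists as deposited. With lists of equal length that number was 21, 17, 20, 21 and 25.

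**Figure D5:**
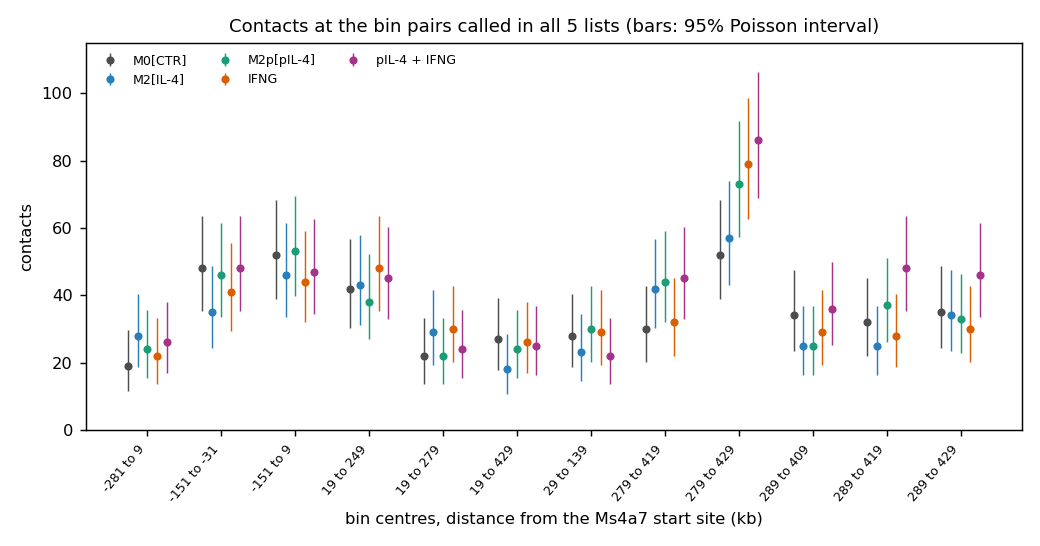
Points are contacts at the 12 bin pairs called in all 5 lists, with 95% Poisson intervals, named by the distances of both bin centres from the Ms4a7 start site in kb. The pair from 279 to 429 kb, Ms4a2 to Gif, goes from 52 contacts in M0[CTR] to 86 in pIL-4 + IFNG, and the pair from 19 to 249 kb around the middle segment stays between 38 and 48.

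Most bin pairs of the cluster were in 1 list only. Of 217 distinct bin pairs, 137 (63.1%) were in 1 list and 12 (5.53%) in all 5, where 55.5% and 9.18% of the 153264 bin pairs of the genome were. Those in 1 list numbered 12, 18, 35, 26 and 46 in M0[CTR], M2[IL-4], M2p[pIL-4], IFNG and pIL-4 + IFNG. When a loop with both anchors within 25 kb counted as a match, far fewer were unmatched. Of the M0[CTR] loops 46 of 50 (92%) then had a match in each other list, against 81% of all its loops, and of the pIL-4 + IFNG loops 73 of 104 (70.2%) against 76.1%.

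Loops without such a match were gained more often than lost. M2[IL-4] had 11 loops unmatched in M0[CTR] and M0[CTR] 3 unmatched in M2[IL-4]. M2p[pIL-4] had 19 unmatched in M0[CTR], with 1 in reverse, and 12 unmatched in M2[IL-4], with 5 in reverse. IFNG had 15 unmatched in M0[CTR], with 3 in reverse. For pIL-4 + IFNG there were 13 against M2p[pIL-4] and 16 against IFNG, with 11 and 8 in reverse. As a share of the loops, those gained were 12.5% to 21.3% of the first list named, where 11.4% to 14.1% of all loops were unmatched. In reverse, 6%, 2% and 6% of the M0[CTR] loops were unmatched in M2[IL-4], M2p[pIL-4] and IFNG. Over all M0[CTR] loops it was 10.8%, 8.88% and 12%. In the remaining comparisons, in the order above, the reverse shares were 8.77%, 12.4% and 10.5%, against 10.1%, 11.3% and 9.17% of all loops. Longer lists leave more loops unmatched in shorter ones.

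The unmatched loops with the most contacts were mostly between adjacent bins, where contacts are high in any Hi-C map. In M2[IL-4] against M0[CTR] it was chr19:11260001-11270000 with the next bin, 125 contacts, and in M2p[pIL-4] against M0[CTR] chr19:11270001-11280000 with the next bin, 109 contacts. Against M2[IL-4], M2p[pIL-4] had chr19:11380001-11390000 with the next bin, in Ms4a4a, 102 contacts. The pIL-4 + IFNG list had 2 such, from the bins starting at 11430001 (93 contacts, against M2p[pIL-4]) and 11520001 (113 contacts, against IFNG). In all, adjacent-bin loops numbered 0, 2, 3, 0 and 4 in the 5 lists, so they were absent from the M0[CTR] and IFNG lists of the cluster. In IFNG against M0[CTR] the top unmatched loop spanned 80 kb in the middle segment, from chr19:11470001-11480000 in Ms4a6c to chr19:11550001-11560000, with 41 contacts.

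In the reverse direction the top unmatched loops of M0[CTR] had fewer contacts. They were chr19:11260001-11270000 to the bin of the Ms4a7 boundary sequence, 36 contacts, against M2[IL-4], and chr19:11610001-11620000 to chr19:11880001-11890000, 17 contacts, against M2p[pIL-4]. Against IFNG it was chr19:11230001-11240000 to chr19:11290001-11300000, 39 contacts. M2[IL-4] had the adjacent bins from 11470001, 96 contacts, unmatched in M2p[pIL-4]. M2p[pIL-4] had its adjacent bins from 11270001 unmatched in pIL-4 + IFNG, and IFNG had chr19:11000001-11010000 to the Ms4a7 boundary bin, 22 contacts, unmatched in pIL-4 + IFNG.

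Partners outside the window lay on both sides and mostly in Ms4a13 and Gif. The bin of Ms4a13 starting at 11180001 had 4, 6, 6, 6 and 6 loops to the cluster in M0[CTR], M2[IL-4], M2p[pIL-4], IFNG and pIL-4 + IFNG, and its neighbour starting at 11170001 had 1, 2, 5, 1 and 5. This neighbour had more loops in both washed-out lists than in the others, but the counts are small and were not scaled by list length, and the washed-out lists are the longest. The Gif bins starting at 11760001 and 11750001 had 20 and 15 loops over the 5 lists. The bin starting at 11040001, with no protein-coding gene, had 0, 2, 3, 4 and 1. No protein-coding TSS lay in any of these 5 most used outside bins.

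The other Ms4a genes of the cluster and its flanks are given for comparison. The 13 other Ms4a genes had a median scaled log2 ratio of 0.06 for M2[IL-4] to M0[CTR], with 0 past 1.5-fold in either direction. For M2p[pIL-4] it was 0.43 against M0[CTR], with 3 higher, and 0.42 against M2[IL-4], with 1 higher. For IFNG to M0[CTR] it was 0.57, and for pIL-4 + IFNG it was 0.11 against M2p[pIL-4] and -0.09 against IFNG, with 0 past 1.5-fold in the last 2. The 6 members had medians of -0.05, 0.37, 0.45, 0.32, 0.20 and 0.22 in the same order. The 30 flanking genes with enough loops had 0.16, 0.17, 0.05, 0.52, 0.34 and -0.22. For M2p[pIL-4] to M0[CTR], 3 of the flanking genes were higher and 4 lower by 1.5-fold or more. All genes with enough loops had medians between -0.04 and 0.02. Many of these genes share loops with the members, and Ms4a4b and Ms4a4d, which lie among the members, had 30, 33, 52, 38 and 61 and 30, 34, 56, 38 and 62 loops. Gm8369, counted with the flanking genes, has its TSS between those of Ms4a6c and Ms4a6b. It had 20, 21, 43, 23 and 45 loops, and its M2p[pIL-4] log2 ratios were 0.72 to M0[CTR] and 0.78 to M2[IL-4]. The pattern of Ms4a6c and Ms4a6b was thus not particular to members.

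The genes off the cluster whose loop numbers across the 5 lists were most like those of the cluster were Rpl28, a protein of the large ribosomal subunit, on chromosome 7, and Nlgn2, a synaptic adhesion protein, and Tmem256 on chromosome 11. Rpl28 had 30, 33, 53, 43 and 58 loops in M0[CTR], M2[IL-4], M2p[pIL-4], IFNG and pIL-4 + IFNG, at a distance of 0.0944 from the cluster's profile of centred log2 numbers. Nlgn2 and Tmem256, which share their loops, had 35, 38, 55, 51 and 69, at a distance of 0.131. The likeness was over 5 lists and 6530 genes with a mean of 20 or more loops.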

How the data were processed

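Hi-C contacts of mouse bone marrow-derived macrophages were analysed from 5 deposited loop lists, 1 for each group of 2 labelled replicates, which appear to be merged. Groups were taken from the sample titles. The authors describe chromatin cut with MboI, the nf-core/hic pipeline (mapping by Bowtie2 within HiC-Pro), Juicebox normalization and HICCUPS from Juicer. The deposited lists hold 10 kb bins, not the 25 kb of those methods, and, as the authors deposited them, whole-number counts of contacts with no sign of normalization. The caller and threshold behind them are not given in the sources used here. The submitters' processing notes name mm10, FastQC, Bowtie2, HiC-Pro, Juicer and HOMER.

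Members and lists of genes were chosen with earlier results of these data known, and the 3 segments, the counts with both anchors in the window and those with a strength of 1 or more were chosen after seeing the values. Genes named were the members, the other Ms4a genes and genes within 500 kb as lists, genes with a TSS in the 5 most used outside bins, and the 3 genes most alike in loop number. Loops named were the 3 with most contacts, the 3 strongest in all lists and the top unmatched loop of each comparison; other loops, bins and genes were picked after their values were seen. Loop numbers were divided by the length of their list. For single genes 1 loop was added as a pseudocount, and a mean of 5 or more loops was asked. Intervals are exact at 95% (Poisson for counts, conditional binomial for ratios), and with 1 list a group no test was made. The scripts were tested on simulated data and ran in Python 3.11.15 with scipy 1.17.1, pandas 2.3.3, matplotlib 3.10.9 and numpy 2.4.6. Coordinates were read as GRCm38, the build mm10. A further motif searched in the promoters is not reported here. Alternatives were the window, the scaling, equal list lengths, merged bin pairs, adjacent bins, the matching distance, the pseudocount and the minimum.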

Additional observations from a re-analysis of the deposited data

How the results depend on the processing

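Over 72 results and 186 alternatives, 133 values moved by less than their counting interval or 1.5 times and 53 moved by more. Some log2 ratios changed sign, and those given below are examples. Lists cut to equal length by strength gave log2 ratios of cluster loops of -0.06 for M2p[pIL-4] to M0[CTR] and -0.49 for pIL-4 + IFNG to IFNG. For M2[IL-4] to M0[CTR] this cut gave -0.15, against 0.06, a move within the counting interval. With both anchors in the window, a choice made after seeing the data, the ratio was 0.01 for IFNG to M0[CTR] and 0.82 for pIL-4 + IFNG to IFNG. At bin pairs in all 5 lists the contacts of pIL-4 + IFNG were 1.11 times those of M2p[pIL-4]. The cause was not tested.

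The number of unmatched loops followed the matching distance by construction. Asking for the same bins, and in brackets allowing 50 kb, M2[IL-4] had 36 (4) unmatched in M0[CTR] and M0[CTR] 29 in M2[IL-4]. M2p[pIL-4] had 65 (10) in M0[CTR], with 26 (0) in reverse, and 57 (4) in M2[IL-4], with 25 (2) in reverse. IFNG had 52 (6) in M0[CTR], with 26 (1) in reverse. The pIL-4 + IFNG list had 67 (0) in M2p[pIL-4], with 52 (3) in reverse, and 69 (5) in IFNG, with 41 (4) in reverse.

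Shares of all genes past 1.5-fold, 4.91% to 10.2% as reported, were 2.42% to 5.58% with a pseudocount of 5 and 8.19% to 12.9% with no minimum. Near single members, 8 of 72 alternatives moved by more than the counting interval, all with a window of 25 kb. There Ms4a6b had 7, 4, 15, 3 and 12 loops in M0[CTR], M2[IL-4], M2p[pIL-4], IFNG and pIL-4 + IFNG, and its ratio of IFNG to M0[CTR] was -1.04, against 0.30 with 100 kb. For Ms4a4c pIL-4 + IFNG to M2p[pIL-4] gave -0.38, against 0.29. For Ms4a7 the ratio of M2p[pIL-4] to M0[CTR] was -0.20 with 25 kb, against 0.31, a move within the counting interval.

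No paired analysis was possible because the replicates of a group were not separate in its list. For the same reason none was left out in turn. A list holds called loops only, and contacts at bin pairs outside it are not known.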
